A study of Saccharomyces cerevisiae with 68 samples.

Results

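The genes for the subunits of the proteasome of the budding yeast Saccharomyces cerevisiae were followed in wild type (WT) and in 8 strains that lack parts of SAGA, a coactivator complex of RNA polymerase II. Members were the genes on the array with the symbols RPN1 to RPN3 and RPN5 to RPN14, RPT1 to RPT6, PRE1 to PRE10, PUP1 to PUP3 and SCL1, which gave 33 of the 5449 S. cerevisiae genes. Of these, 32 encode structural subunits, 14 in the 20S core and 18 in the 19S regulatory particle. The name pattern also took in RPN14, a chaperone of 19S assembly, which is given apart. RPN4, the transcription factor of these genes, shares the RPN name and is also given apart. All 33 members and RPN4 passed the filter on dim genes in both RNA fractions. The array carries probe sets for the fission yeast Schizosaccharomyces pombe too, and RNA of that species was present on each array as a spike-in.

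All S. cerevisiae strains derived from FY406. The single deletions were spt20Δ and spt7Δ, which lack core structural subunits, ubp8Δ, which lacks the histone deubiquitinase, gcn5Δ, which lacks the histone acetyltransferase, and spt3Δ and spt8Δ, which lack the subunits that contact the TATA-binding protein. The double deletions were ubp8Δgcn5Δ and spt3Δgcn5Δ. Each culture of 100 mL was grown in rich medium (YPD) at 30 °C to an OD600 of about 0.8 and labelled for 6 min with 5 mM 4-thiouracil. Wild-type S. pombe, grown at 31 °C and labelled for 6 min as well, was mixed in at 3 parts S. cerevisiae to 1 part S. pombe before extraction. Total RNA is the steady-state RNA of this mixture, and nascent RNA is the labelled, newly made RNA purified from it, so every group carried the thiouracil pulse. The arrays used were 6 WT arrays per fraction, 4 each of ubp8Δ, gcn5Δ and ubp8Δgcn5Δ per fraction, 2 each of spt3Δ, spt8Δ and spt3Δgcn5Δ per fraction, 4 nascent and 2 total arrays of spt20Δ, and 4 total arrays of spt7Δ. The labels state 2 independent biological replicates per deletion strain, while 4 arrays exist for 5 of the 8 strains. The sources used here do not say whether the additional arrays are repeats, so p-values measure the spread between arrays, which may be technical.

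The 26S proteasome degrades proteins that carry ubiquitin chains. Its 20S core is a barrel of alpha and beta rings whose beta subunits PRE3, PUP1 and PRE2 hold the proteolytic sites. The 19S base unfolds the substrate with the ATPases RPT1 to RPT6 on the scaffold subunits RPN1 and RPN2 and binds ubiquitin through RPN10 and RPN13, while the lid removes ubiquitin through RPN11. RPN4 is a short-lived zinc-finger activator that binds an element shared by the promoters of most of these genes, and it is itself degraded by the proteasome, which forms a feedback loop.

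Levels are log2 signal minus the median of log2 signal over the S. cerevisiae genes of the same array, so that 0 is the middle of that array. They compare a gene between arrays and not one gene with another. A gene was called where limma's moderated test, fitted over all arrays of a fraction and 4086 genes, gave a Benjamini-Hochberg adjusted p under 0.05. Changes are log2 differences given with their standard error. On the arrays used, the deleted gene lay below every WT array in 19 of 19 checks. For spt20Δ total RNA this check is not independent, since arrays 1 and 3 were left out for SPT20 levels inside the WT range. The arrays fell into 2 sets by their S. pombe profiles: WT 7, WT 8 and spt3Δgcn5Δ in 1 set, and WT 3 to 6 with all other strains in the second. The mean rank correlation of S. pombe genes between the sets was 0.669 in nascent and 0.850 in total RNA, against a lowest value of 0.891 and 0.964 within a set. The sources used here do not say what the sets are. Counts of members called against all 6 WT arrays are therefore followed by the fit that keeps the set as a block, called here the same-set comparison.

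The proteasome genes differed between the array sets in WT itself. In nascent RNA the median over the 33 members was 2.51, 2.41, 2.49 and 2.36 on WT 3 to 6, and 1.70 and 1.75 on WT 7 and 8. In total RNA it was 2.59, 2.50, 2.54 and 2.48, and then 1.99 and 1.85. WT 7 and 8 thus lay below the other WT arrays in both fractions, with no overlap. Between these sets of WT arrays 23 members were lower and 1 higher in nascent RNA, with a median difference of -0.67, where 36.5% of all genes were lower and 29.3% higher and their median was -0.067. In total RNA 20 members were lower and 5 higher, with a median of -0.47, where 35.2% of all genes were lower and 41% higher with a median of 0.071. PUP3 and PRE1, beta subunits of the core, differed by -2.20 and -1.71 in nascent RNA and by -1.75 and -1.48 in total RNA. RPN10, the ubiquitin receptor of the base, differed by -1.33 and -1.18, and RPN4 by -1.11 and -1.29. RPN14 went the other way, at 1.21 and 0.72, and in total RNA the base genes RPN1, RPT1, RPT5 and RPN2 were higher by 0.42, 0.38, 0.35 and 0.31.

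**Figure D1:**
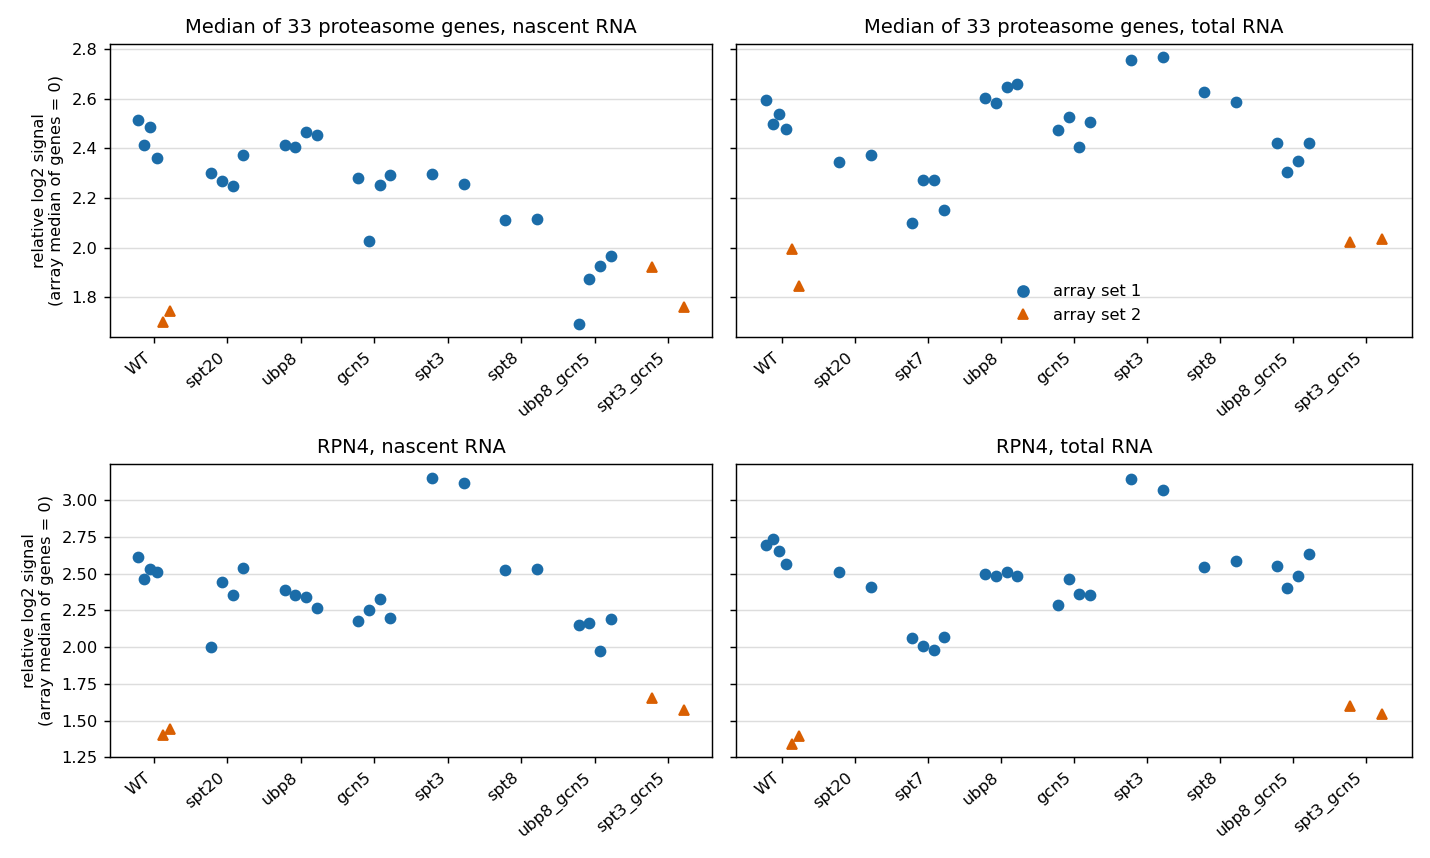
Levels on each array used, as the median over the 33 proteasome genes and as RPN4, in nascent and total RNA; the vertical axis is log2 signal relative to the median S. cerevisiae gene of the array, the horizontal axis the strain, and the marker tells the array set. WT 7 and 8 (member median 1.70 and 1.75 nascent, 1.99 and 1.85 total) and spt3Δgcn5Δ lie below the other arrays in each panel except for ubp8Δgcn5Δ in nascent RNA, whose member medians reach as low, and the spt3Δ arrays carry the highest RPN4.

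This set difference followed gene length among the members. Its rank correlation with annotated gene length was 0.84 in nascent and 0.83 in total RNA over the 33 members, and 0.57 and 0.64 over the 4086 genes tested. These are descriptions across genes of the same arrays. The core genes are short, from 597 to 867 bases, and all 14 of them were lower on WT 7 and 8 in nascent RNA, 6 of 7 alpha and 7 of 7 beta genes also in total RNA. The base genes have a median length of 1309.5 bases and the lid genes of 1236 bases; 4 of 10 base and 5 of 8 lid genes were lower in nascent RNA, and in total RNA 3 base genes were lower and 4 higher while 4 lid genes were lower. S. pombe genes with the same symbols, which no deletion touches, behaved alike: the median over 22 of them was 1.22 on WT 7 and 8 against 1.85 on WT 3 to 6 in nascent RNA, and 1.43 against 2.01 in total RNA. Whether length or something that goes with it underlies the set difference was not tested.

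**Figure D2:**
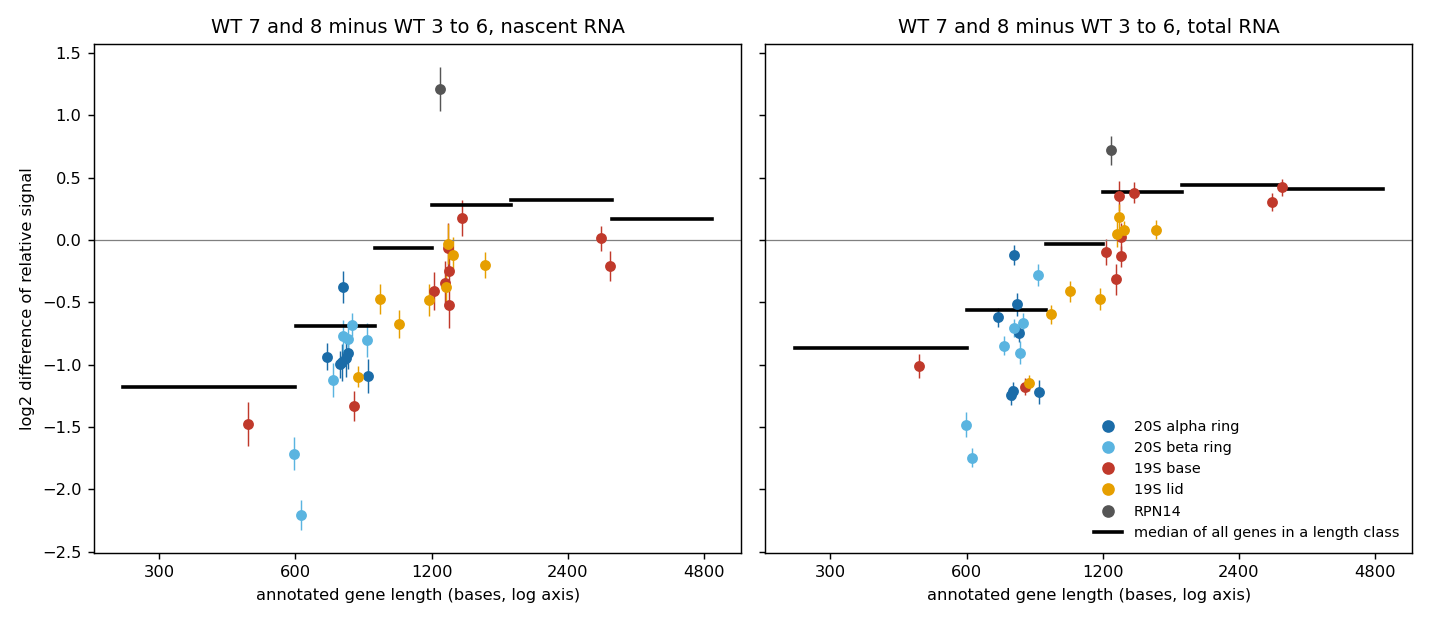
Difference of WT 7 and 8 from WT 3 to 6 (log2, vertical axis) against annotated gene length in bases (horizontal axis, log scale) for each proteasome gene, by place in the complex, in both fractions; black bars are the median of all genes in a length class, with the first and last class drawn to arbitrary ends. Most of the short 20S core genes (597 to 867 bases) lie below the longer base and lid genes, and RPN14 lies highest in both fractions.

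Newly made and steady-state RNA of WT were compared for each subunit, relative to all other genes. With nascent set against total RNA in WT, 6 members were lower and none higher in a joint fit of both fractions over 4015 genes, where 12.4% of all genes were lower and 1.05% higher. PRE6, an alpha subunit, was lower by 0.44 on the log2 scale, at a median of 3.02 over 6 nascent arrays (lowest 2.76, highest 3.28) and of 3.42 over 6 total arrays (3.32 to 3.67). The other 5 were RPN8 at -0.36, the catalytic subunit PRE2 at -0.35, RPN1 at -0.27, the ATPase RPT4 at -0.26 and RPN2 at -0.21. Same-numbered WT arrays of the 2 fractions deviated together, with correlations over genes from 0.127 to 0.762 in 6 pairs. WT 7 and 8 share the value 0.127, since deviations from the mean of 2 arrays mirror each other. With such pairs as a block, 21 members were lower and none higher, where 27.6% of all genes were lower and 5.63% higher, and the 6 were among the 21. Among the arrays of the larger set 2 members were called lower, PRE6 and RPN12 of the lid, and none higher, where 0.423% of all genes were lower and 0.423% higher. In the unpaired fit none was called with only the WT arrays or with consecutive replicates averaged, 1 was left without nascent WT 7 and 2 without nascent WT 8, and there were 10 without nascent WT 3 and 11 without nascent WT 5. Relative to S. pombe, 18 members were higher in nascent RNA and none lower. The share of all genes called on that scale was not counted.

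The strains are compared with WT from here on by RNA fraction. Against all WT arrays, the most members called higher were the 13 of spt3Δ in total RNA, and the most called lower were the 14 of spt7Δ in total and the 13 of ubp8Δgcn5Δ in nascent RNA, a count that rests on a feature of the deposited values described below and is 2 without it.

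**Figure D3:**
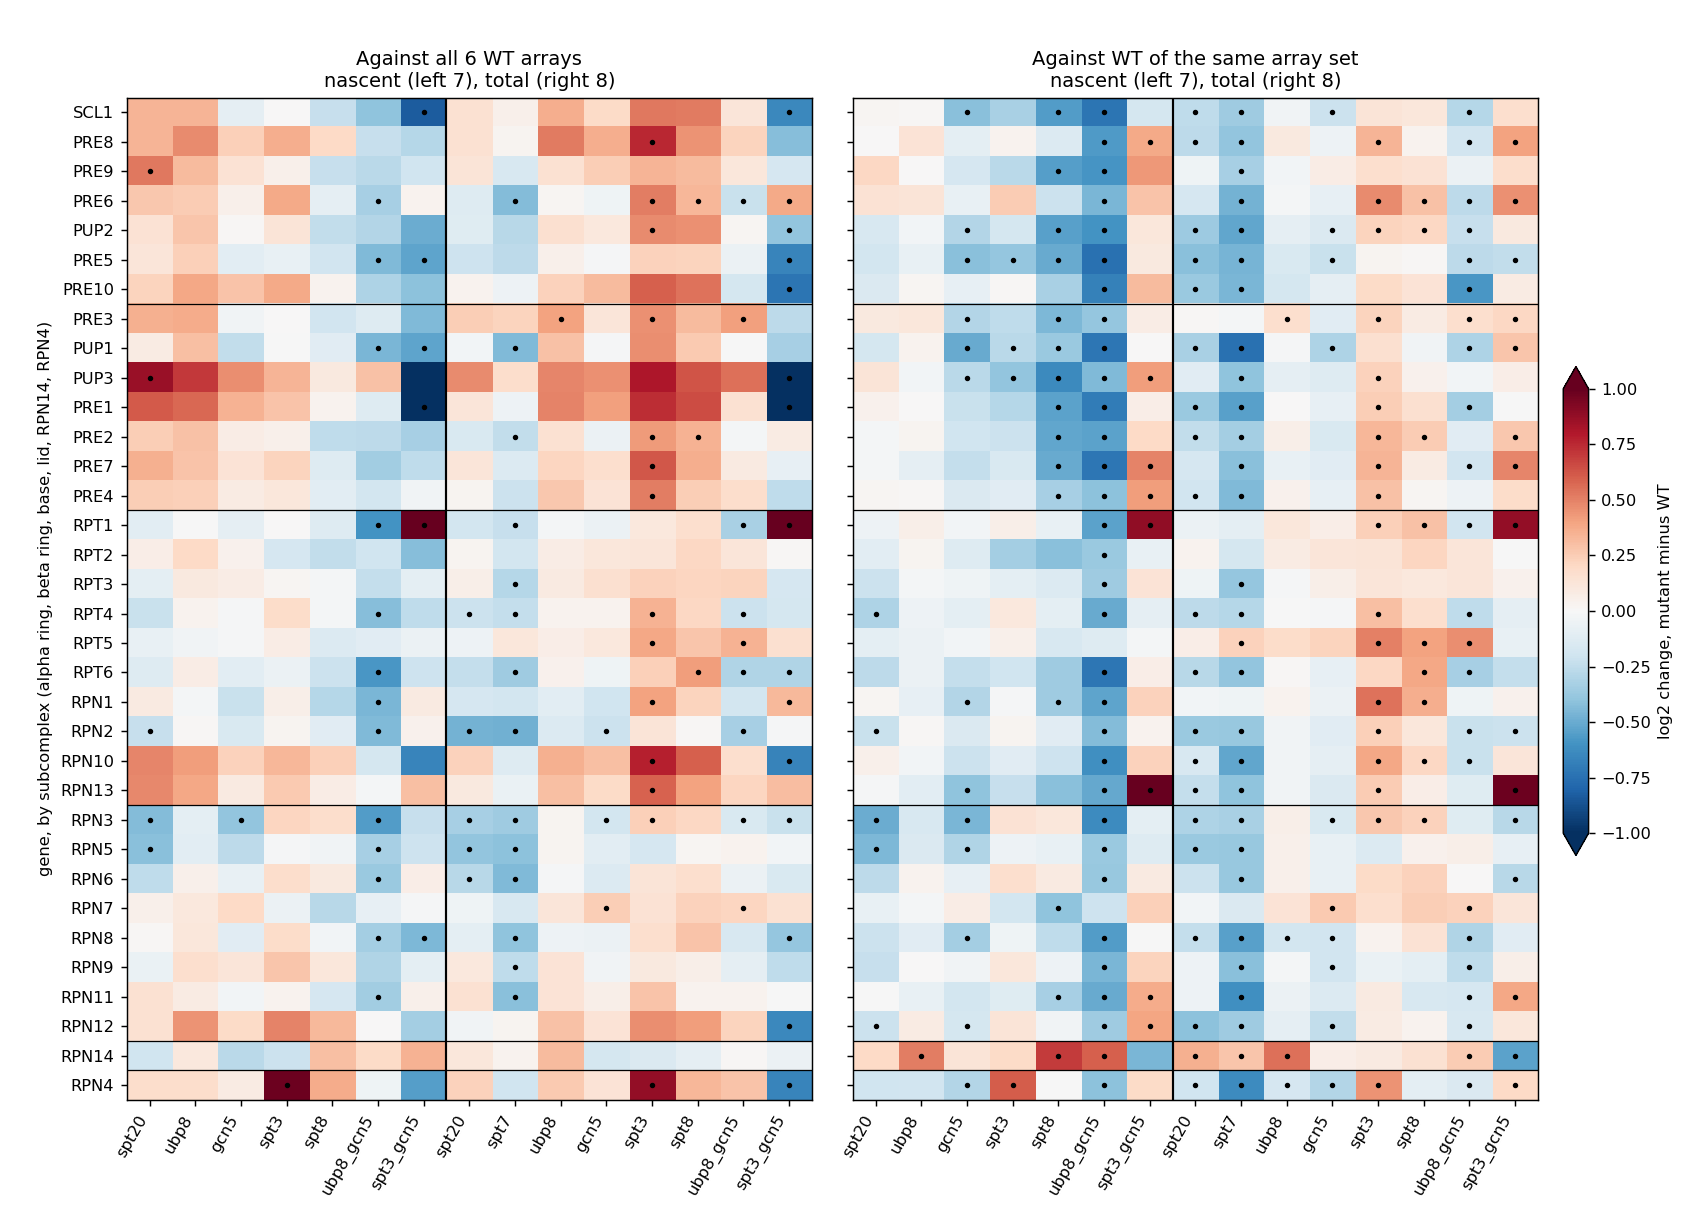
Change of each proteasome gene and RPN4 in each strain and fraction (log2, colour; dots mark an adjusted p under 0.05), on the left against all 6 WT arrays and on the right against WT arrays of the same set. The spt3Δ total column has 13 dots for members, all higher, on the left and 17 on the right; most single-deletion columns shift toward lower values on the right, and spt3Δgcn5Δ shifts toward higher values.

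In total RNA of spt3Δ, 13 of 33 proteasome genes rose and none fell, with a median change of 0.39 over the 33, where 15.3% of all genes rose, 12.1% fell and the median was 0.060. The rise took in the alpha genes PRE8, PRE6 and PUP2, the beta genes PRE3, PRE2, PRE7 and PRE4, the base genes RPT4, RPT5, RPN1, RPN10 and RPN13, and from the lid only RPN3. PRE6 was 4.00 and 3.91 on the spt3Δ arrays against 3.44, 3.67, 3.42, 3.41, 3.32 and 3.42 on the WT arrays. Both spt3Δ arrays lay above every WT array, including WT 4, the highest of the 6. The change was 0.51 ± 0.083 with an adjusted p of 7.65e-05.

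RPN10, which binds ubiquitin chains, changed by 0.78 ± 0.23 in spt3Δ total RNA (adjusted p 0.0160), at 2.67 and 2.66 against 2.30, 2.33, 2.22 and 2.28 on WT 3 to 6 and 1.02 and 1.19 on WT 7 and 8. Of that change, 0.39 was left against WT of the same set. PRE8, an alpha subunit, changed by 0.76 ± 0.25 (0.34 in the same-set comparison), PRE7, a beta subunit, by 0.62 ± 0.18 (0.34), and RPN13, the second ubiquitin receptor of the base, by 0.59 ± 0.21 (0.25). The long scaffold gene RPN1 went the other way, from 0.40 to 0.54. Its arrays read 3.28 and 3.19 in spt3Δ, and WT had a median of 2.73 and a highest array of 3.16. RPN3, the lid subunit named in the most comparisons, read 2.07 and 2.14 against WT arrays from 1.81 to 1.99 and rose by 0.24.

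The same-set comparison called 17 members higher and none lower in spt3Δ total RNA, where 28.5% of all genes were higher and 18.4% lower, and the 13 were all among the 17. The 4 added were PUP3, PRE1, RPT1 and RPN2. By place, 3 of 7 alpha, 6 of 7 beta, 7 of 10 base and 1 of 8 lid genes were higher there, with median changes of 0.19, 0.25, 0.24 and 0.09. Both spt3Δ arrays lay above all 6 WT arrays for 16 members, where 14.7% of all genes did so, and above the 4 WT arrays of the same set for 18. The change over the members had a rank correlation with gene length of -0.72 against all WT arrays and of -0.055 in the same-set comparison. With the length trend of each array removed, 19 members were higher and none lower, with all 13 among them. The share of all genes called with that trend removed was not counted. S. pombe genes on the same arrays, a control that no deletion touches, were called in 20% of cases in the same-set comparison, and 2 of 22 of those with proteasome names were higher and 3 lower.

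The spt3Δ result rests on 2 arrays and on the shared estimate of the spread. Without the first spt3Δ array 2 members were called, without the second 4, and without WT 4 there were 20, all higher. With only the spt3Δ and WT arrays in the fit no member was called. On the spike-in scale, where levels are relative to S. pombe genes and the median of all genes changed by -0.011, the members' median was 0.32 and none was called. On that scale 0.954% of all genes were higher and 4.89% lower. Quantile normalization left 8 members higher and none lower, where 11.1% of all genes were higher and 11.5% lower.

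**Figure D4:**
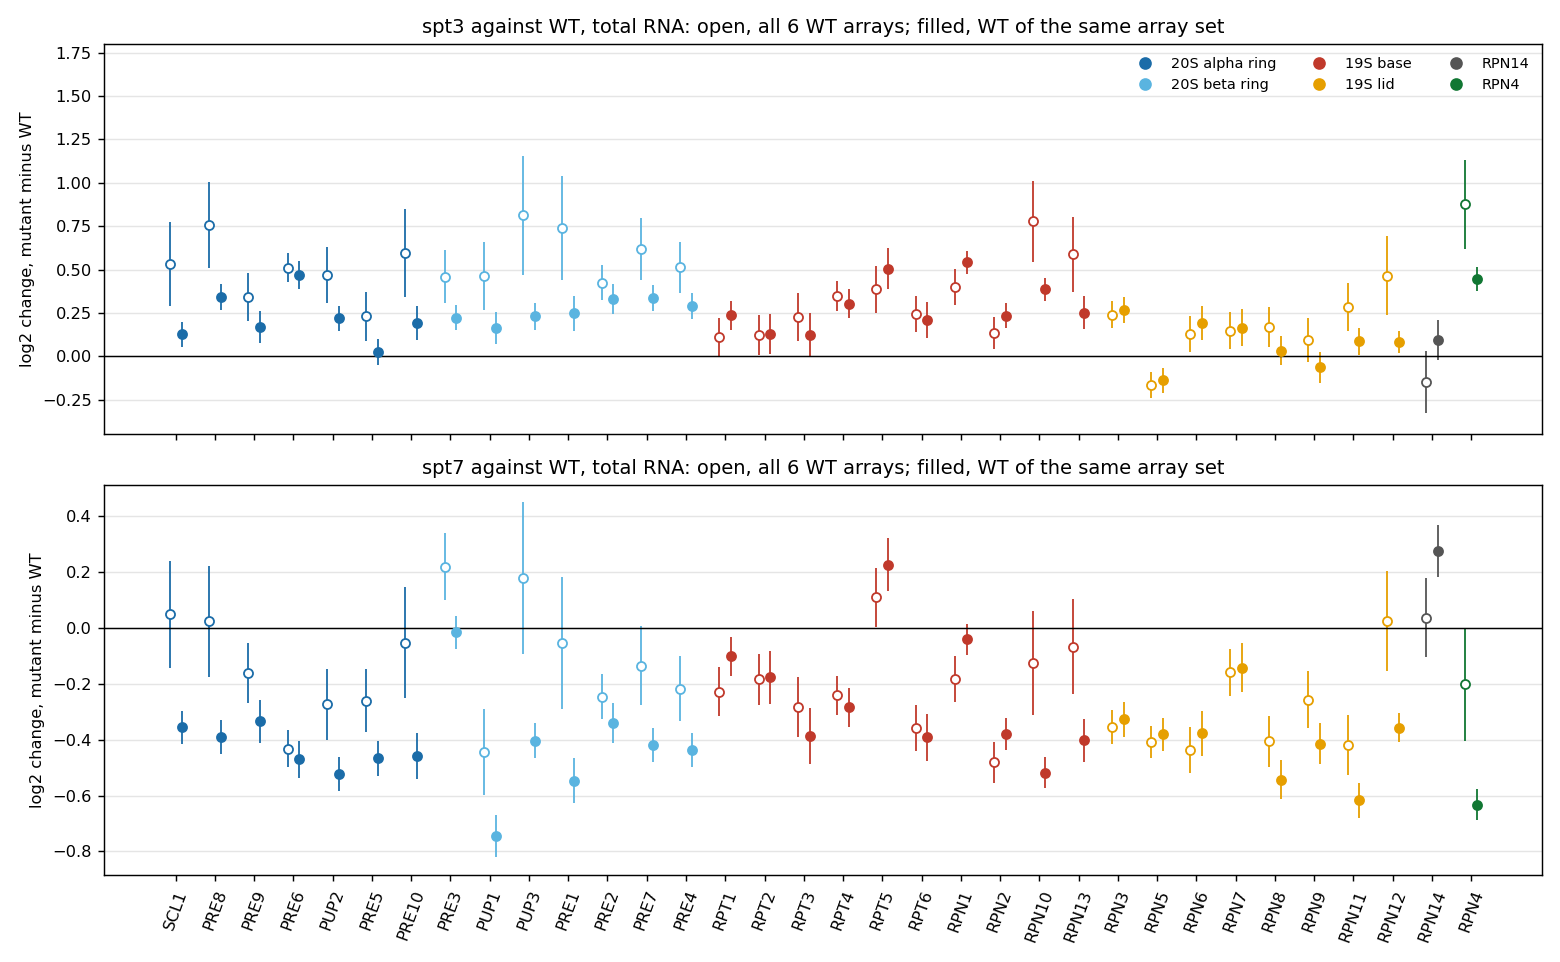
Change of each proteasome gene and RPN4 in total RNA of spt3Δ and spt7Δ (log2, vertical axis), open symbols against all 6 WT arrays and filled symbols against WT of the same set, bars ± standard error. In spt3Δ 31 of the 33 members lie above 0 in each comparison; in spt7Δ the filled symbols lie mostly below 0, with 26 members called lower.

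In nascent RNA of spt3Δ no member was called, where 4.75% of all genes were higher and 8.71% lower, and the median change was 0.074. In the same-set comparison PRE5, PUP1 and PUP3, all core genes, were lower by 0.39, 0.27 and 0.40 on the log2 scale, where 13% of all genes were higher and 23.2% lower. S. pombe genes were called in 63% of cases in that comparison, and 10 of 21 with proteasome names were lower, none higher. The difference between the fractions in spt3Δ (change in nascent minus change in total RNA) called no member, where 0.0996% of all genes were higher and 0.423% lower. With the set as a block it called 12 lower and none higher, where 7.32% of all genes were higher and 21.4% lower. With same-numbered arrays of the fractions paired instead, 6 core genes were lower and none higher, where 3.49% of all genes were higher and 7.32% lower. Such pairs do not show in the spt3Δ arrays themselves, whose same-numbered arrays had a correlation over genes of -0.033.

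RPN4, the activator of these genes, rose in spt3Δ in both fractions. In nascent RNA it read 3.15 and 3.12 in spt3Δ against 2.61, 2.46, 2.53 and 2.51 on WT 3 to 6 and 1.40 and 1.44 on WT 7 and 8. In total RNA it read 3.14 and 3.07 against 2.70, 2.73, 2.65 and 2.56 and then 1.34 and 1.40. The spt3Δ arrays lay above every WT array in both fractions, by more than the spread within either WT set. The change was 0.98 ± 0.24 in nascent RNA (adjusted p 0.0088) and 0.88 ± 0.26 in total RNA (adjusted p 0.0131), and 0.61 and 0.45 in the same-set comparison.

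The RPN4 call was lost in both fractions without either spt3Δ array, with adjusted p up to 0.117 and 0.120, and with only spt3Δ and WT in the fit (adjusted p 0.367 in nascent and 0.353 in total RNA). On the spike-in scale RPN4 changed by -0.15 in nascent RNA, where the median of all genes moved by -1.15, and by 0.81 in total RNA (adjusted p 0.320). RPN4 was higher in spt3Δ than in gcn5Δ by 0.90 in nascent RNA (adjusted p 0.0192) and by 0.74 in total RNA (adjusted p 0.0530), and higher than in spt8Δ by 0.61 and 0.54, which was called only in the same-set comparison (adjusted p 0.00545 and 8.89e-06).

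Outside spt3Δ, RPN4 was called against all WT arrays in 1 of the other 13 comparisons, at -0.66 ± 0.26 in total RNA of spt3Δgcn5Δ (adjusted p 0.0305). Its arrays there, 1.60 and 1.55, lay above the 1.34 and 1.40 of WT 7 and 8, and the same-set change was 0.20. In spt7Δ total RNA it read 2.06, 2.00, 1.98 and 2.07, below each of WT 3 to 6 and above WT 7 and 8. Its change was -0.20 (adjusted p 0.432) against all WT arrays and -0.63 in the same-set comparison. In that comparison RPN4 was also lower by 0.29 in gcn5Δ and by 0.41 in ubp8Δgcn5Δ in nascent RNA (-0.15, adjusted p 0.191, with the constants described below undone), and by 0.29 in gcn5Δ, 0.20 in spt20Δ, 0.17 in ubp8Δ and 0.15 in ubp8Δgcn5Δ in total RNA. In spt8Δ it changed by -0.0011 and -0.097 there and was not called.

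SPT8 sits beside SPT3 in the same module of SAGA. In total RNA of spt8Δ, 3 members rose and none fell, with a median change of 0.28, where 11.6% of all genes rose and 5.12% fell. They were the ATPase RPT6 at 0.42, PRE2 at 0.35 and PRE6 at 0.33. RPT6 read 3.05 and 3.00, above WT arrays from 2.44 to 2.84, and PRE6 read 3.85 and 3.71, above WT 4 at 3.67. Both arrays lay above all WT arrays for 9 members, where 14.8% of all genes did so. Against WT of the same set 9 members were higher and none lower, where 27.9% of all genes were higher and 12.6% lower, with these 3 among them. Without the first spt8Δ array no member was called and without the second 1, while without WT 4 there were 6. On the spike-in scale, where the median of all genes was 0.62, 29 members were higher and none lower. There 53.3% of all genes were higher and 0.147% lower. After quantile normalization no member was called, where 3.06% of all genes were higher and 3.57% lower.

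No member was called in nascent RNA of spt8Δ, where 3.38% of all genes were higher and 9.4% lower. Against WT of the same set 14 were lower and 1 higher, where 31.1% of all genes were lower and 12.1% higher. The 14 were 11 core genes, among them PUP3 at -0.64 and SCL1 at -0.56, with RPN1, RPN7 and RPN11, and the 1 higher was RPN14 at 0.70. S. pombe genes were called in 61% of cases in that comparison. Against all WT arrays, quantile normalization called 6 members higher in nascent RNA and none lower, where 3.79% of all genes were higher and 4.94% lower. This count differs from the 14 in the WT arrays used as well as in the scaling. Against the same WT arrays the members' median was -0.11 without quantile normalization and 0.31 with it, so its sign depended on the scaling.

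The change in spt8Δ differed between the fractions for 2 members. RPT6 changed by 0.634 less and RPN1 by 0.508 less in nascent than in total RNA (adjusted p 0.0442 and 0.0460), where 6.35% of all genes were lower in this difference and 1.15% higher. RPT6 read 2.13 and 2.11 in nascent RNA, inside the WT range of 2.04 to 2.83 but below WT 3 to 6, whose lowest was 2.17. In total RNA RPT6 stood above all WT arrays. RPN1 read 2.30 and 2.26 in nascent RNA, below the lowest WT array at 2.36. In total RNA it read 3.10 and 3.03, above WT 3 to 6 at 2.66 to 2.74. It lay inside the WT range there only through WT 7 and 8, which are of the other set. With the set as a block 19 members were lower and 1 higher, where 34.4% of all genes were lower and 9.64% higher. With same-numbered arrays of the fractions paired 16 were lower and none higher, RPT6 and RPN1 among them, where 26.6% were lower and 6.67% higher. Such pairs do not show in the spt8Δ arrays themselves, whose same-numbered arrays had a correlation over genes of 0.0025. In the unpaired fit neither call was left on the spike-in scale, after quantile normalization or without a filter on dim genes. No call was left either without any 1 of the 4 spt8Δ arrays, nascent WT 3 or 5, or total WT 4 or 6, while there were 6 without nascent WT 7 and 5 without nascent WT 8.

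Set directly against each other, spt3Δ and spt8Δ had no member called in either fraction, where 0.367% of all genes were higher and 0.612% lower in nascent RNA, and 2.72% higher and 3.62% lower in total RNA. The same-set comparison called 4 higher and none lower in spt3Δ in total RNA, where 9.52% of all genes were higher and 12.8% lower. Against gcn5Δ, 6 members were higher in spt3Δ in total RNA and none lower, where 12.4% of all genes were higher and 9.4% lower. These were RPN1 at 0.60, PRE6 at 0.56, PRE2 at 0.48, RPN3 at 0.42, RPN2 at 0.35 and RPT4 at 0.32. This contrast involves no WT array, and with the set as a block, which changes only the estimate of the spread here, 25 members were higher and none lower, where 28.8% of all genes were higher and 20.1% lower. Spike-in scaling left none of these calls, where 0.857% of all genes were higher and 10.3% lower. In nascent RNA RPN3 alone was called, higher in spt3Δ by 0.61 ± 0.11 (adjusted p 0.000765), where 6.63% of all genes were higher and 8.13% lower. On the spike-in scale 5 members were lower, where 34.4% of all genes were lower and 0.0979% higher.

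In total RNA of spt7Δ, 14 of 33 proteasome genes fell and none rose, with a median change of -0.22, where 28.5% of all genes fell, 18.9% rose and the median was -0.044. The lid made up 6 of the 14, RPN3, RPN5, RPN6, RPN8, RPN9 and RPN11, of 8 lid genes measured. The base added RPT1, RPT3, RPT4, RPT6 and RPN2, the beta ring PUP1 and PRE2, and the alpha ring PRE6. RPN2, the scaffold of the base on which the lid also rests, read 1.97, 2.00, 2.00 and 1.95 in spt7Δ against 2.37, 2.43, 2.29, 2.35, 2.61 and 2.72 in WT. All 4 spt7Δ arrays lay below every WT array. The change was -0.48 ± 0.073, with an adjusted p of 7.84e-06.

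PRE6 read 2.99, 3.05, 2.98 and 3.04 in spt7Δ, below the lowest WT array at 3.32, and fell by 0.43 ± 0.066. RPN3 read 1.51, 1.54, 1.50 and 1.49 against WT arrays from 1.81 to 1.99, again with no overlap. RPN6 fell by 0.44 ± 0.082 and RPN5 by 0.41 ± 0.059, both lid subunits. All spt7Δ arrays lay below the WT range for 7 members, where 18.4% of all genes did so.

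The same-set comparison called 26 members lower and 2 higher in spt7Δ, where 38.6% of all genes were lower and 26.4% higher. Of the 14 lower members 13 were among the 26, RPT1 being the exception. By place, 7 of 7 alpha, 6 of 7 beta, 6 of 10 base and 7 of 8 lid genes were lower, with medians of -0.46, -0.42, -0.33 and -0.38. S. pombe genes were called in 44.1% of cases there, and of 22 with proteasome names 8 were higher and 5 lower. Leaving out 1 array at a time gave 9 to 17 calls, 9 without the first spt7Δ array. With only spt7Δ and WT in the fit 7 were lower. Quantile normalization called 5 lower and 2 higher, where 23.2% of all genes were lower and 24.9% higher. Spike-in scaling, which put the median of all genes at -0.50, called 22 lower and none higher, where 53.5% of all genes were lower.

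SPT20, like SPT7, holds SAGA together. In total RNA of spt20Δ, 5 members fell and none rose, where 28.1% of all genes fell and 17.3% rose, and the members' median change was -0.025. They were RPN2 at -0.48, RPN5 at -0.40, RPN3 at -0.33, RPN6 at -0.28 and RPT4 at -0.22, each of which also fell in spt7Δ, measured against the same WT arrays. RPN2 read 2.03 and 1.94 and RPN3 read 1.48 and 1.58, below every WT array. With the set as a block 18 were lower and 1 higher, where 37.5% of all genes were lower and 24.4% higher, with 4 of the 5 among the 18. With only spt20Δ and WT in the fit no member was called, and 3 were left without either spt20Δ array, WT 3 or WT 5. Quantile normalization called 6 higher and 2 lower, where 21.3% of all genes were higher and 22.4% lower. Spike-in scaling called 11 lower and none higher with the median of all genes at -0.55, where 47.6% of all genes were lower.

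In nascent RNA of spt20Δ, 3 members fell and 2 rose, where 25% of all genes fell and 20.5% rose. RPN3 fell by 0.43 ± 0.085, at 1.25, 1.44, 1.27 and 1.51 against WT arrays from 1.63 to 2.05, with no overlap. RPN5 fell by 0.41 and RPN2 by 0.23, while the core genes PUP3 and PRE9 rose by 0.87 and 0.53. Neither rise was left in the same-set comparison, which called 5 lower and none higher, where 26.3% of all genes were lower and 19.6% higher, and neither was called without WT 7 or without WT 8. Without WT 4 there were 9 higher and 4 lower, without WT 6, WT 3 and WT 5 there were 7, 6 and 4 higher with 3 lower. Quantile normalization called 7 higher and 2 lower, where 22.6% of all genes were higher and 26.1% lower. Spike-in scaling called 31 lower and none higher with the median of all genes at -1.04, where 83.2% of all genes were lower.

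Against all WT arrays the single deletions of the enzymes of SAGA moved few members. In ubp8Δ no member was called in nascent RNA, where 6.63% of all genes were higher and 7.1% lower, and 1 rose in total RNA, where 10.9% were higher and 14.3% lower. That gene was PRE3, the beta subunit with caspase-like activity. It read 2.61, 2.58, 2.66 and 2.69 against a highest WT array of 2.50 and rose by 0.40 ± 0.12. In the same-set comparison it was higher by 0.17. That comparison called RPN14 alone in nascent RNA, where 6.8% of all genes were higher and 5.68% lower, and 2 members higher and 1 lower in total RNA, where 17% were higher and 17.5% lower. The total RNA call was lost without the fourth ubp8Δ array, and without WT 4 there were 5 calls in total and 4 in nascent RNA, all higher.

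In gcn5Δ RPN3 alone fell in nascent RNA, where 12% of all genes fell and 8.32% rose. It read 1.25, 1.53, 1.48 and 1.37, below the lowest WT array at 1.63, and changed by -0.39. In total RNA RPN2 and RPN3 fell by 0.22 and 0.18 and the lid gene RPN7 rose by 0.24, where 19.8% of all genes fell and 17.2% rose. For these 3 the arrays of gcn5Δ and WT overlapped. Without the first or the second gcn5Δ array 1 call was left, and without WT 4 there were 5. The same-set comparison called 12 lower and none higher in nascent RNA, where 22.4% of all genes were lower and 14.5% higher, and 8 lower and 1 higher in total RNA, where 28.2% were lower and 26.9% higher. S. pombe genes were called in 37.4% and 24.9% of cases there, and 8 of 21 and 10 of 22 with proteasome names were lower. On the spike-in scale 10 members were lower and none higher in nascent RNA, with the median of all genes at -0.47 and 27.3% of all genes lower. None was called in total RNA, where 13.9% of all genes were higher and 2.67% lower.

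In nascent RNA of ubp8Δgcn5Δ, 13 of 33 proteasome genes were lower and none higher, with a median change of -0.30, where 29.9% of all genes were lower, 12.6% higher and the median was -0.15. The lower genes included the ATPases RPT1, RPT6 and RPT4 at -0.60, -0.58 and -0.42, the scaffolds RPN1 and RPN2 at -0.45 and -0.44, and RPN3 at -0.56. RPT1 read 1.43, 1.58, 1.48 and 1.60 against 2.26, 1.63, 2.33, 2.01, 2.22 and 2.24 in WT. RPT6 read 1.56, 1.75, 1.78 and 1.91 against WT arrays from 2.04 to 2.83. As deposited, neither gene overlapped with WT, though for RPT1 the highest mutant array lay close to WT 4. With the constants described below undone, the changes of RPT1 and RPT6 were -0.33 and -0.32. For both genes this shift exceeds the gap to the lowest WT array, so the separation is shown only for the values as deposited.

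These 4 arrays carry a feature of the deposited values. Their nascent values appear to have been divided by 1 of 2 constants, the smaller for 2869 and the larger for 2629 S. cerevisiae probe sets, with a log2 ratio of 0.433 between them. The larger constant applies to 47.8% of all genes and to 32 of the 33 members, RPN14 being the exception. With the constants undone 2 members were lower and none higher, where 17.6% of all genes were lower and 11.5% higher. They were RPT1 at -0.33 (adjusted p 0.0302) and RPN3 at -0.29 (adjusted p 0.0112), while RPT6, RPT4, RPN1 and RPN2 stood at -0.32, -0.16, -0.19 and -0.17 and were no longer called (adjusted p 0.0756, 0.347, 0.159 and 0.0944). The same-set comparison called 30 lower and 1 higher as deposited, where 44.9% of all genes were lower and 17.4% higher. With the constants undone it called 15 lower and 1 higher, where 28.1% were lower and 15.7% higher. Leaving out 1 array at a time gave 9 to 21 calls, 21 without WT 7. Quantile normalization called 4 higher and none lower, where 16% of all genes were higher and 19.1% lower. Spike-in scaling called all 33 lower, with the median of all genes at -1.73 as deposited and 98.1% of all genes lower.

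**Figure D5:**
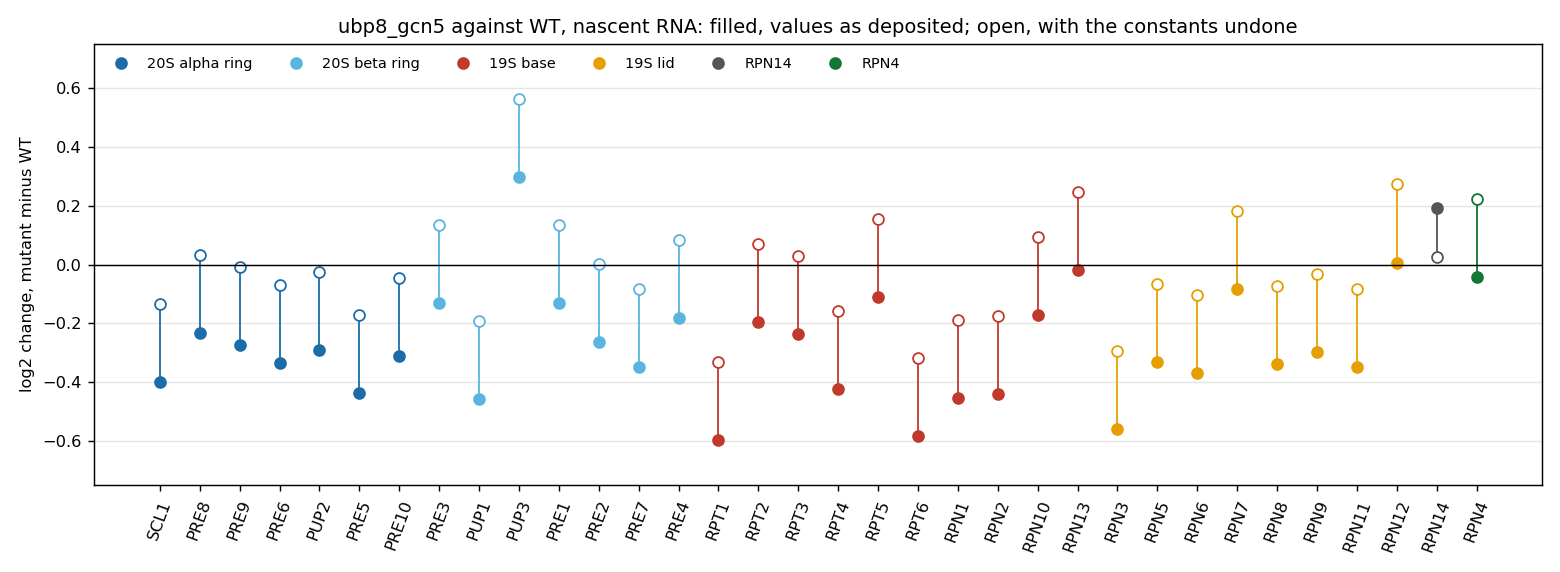
Change of each proteasome gene and RPN4 in nascent RNA of ubp8Δgcn5Δ (log2, vertical axis) with the values as deposited (filled) and with the 2 apparent constants undone (open). Undoing them moves 32 of the 33 genes up and takes the number called lower from 13 to 2.

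Total RNA of ubp8Δgcn5Δ, which carries no such constants, had 6 members lower and 3 higher, where 26.8% of all genes were lower and 18.2% higher. RPN2, RPT1, RPT6, PRE6, RPT4 and RPN3 fell by 0.33, 0.32, 0.30, 0.22, 0.21 and 0.15. RPT1 read 2.03, 1.93, 1.96 and 2.01, just below the lowest WT array at 2.08. PRE3 rose by 0.41, at 2.66, 2.66, 2.67 and 2.59 against a highest WT array of 2.50, beside 0.40 in ubp8Δ, measured against the same WT arrays. The ATPase RPT5 and RPN7 rose by 0.35 and 0.21. With the set as a block 18 were lower and 4 higher, where 36% of all genes were lower and 25.5% higher, with 5 of the 6 and all 3 among them. With only ubp8Δgcn5Δ and WT in the fit none was called, spike-in scaling left 4 lower and none higher, and quantile normalization called 9 higher and 1 lower.

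The difference between the fractions in ubp8Δgcn5Δ called no member, where 0% of all genes were called. With the set as a block it called 20 lower and none higher, where 21.8% of all genes were lower and 3.76% higher, and with the constants undone as well it called none. With same-numbered arrays of the fractions paired it called 16 lower and none higher, where 18.4% of all genes were lower and 2.86% higher, and none once the constants were undone. Such pairs do not show clearly in ubp8Δgcn5Δ, whose same-numbered arrays had correlations over genes from -0.134 to 0.122. No member was called in this difference in spt20Δ, ubp8Δ or gcn5Δ, nor in spt3Δgcn5Δ, where 0.0498% of all genes were higher and 0.0996% lower.

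In spt3Δgcn5Δ the ATPase gene RPT1 had the largest rise of the members against all WT arrays, while RPN13 changed more in the same-set comparison. It read 3.12 and 3.12 in nascent RNA against 2.26, 1.63, 2.33, 2.01, 2.22 and 2.24 in WT, and 3.44 and 3.44 in total RNA against 2.08, 2.10, 2.34, 2.19, 2.53 and 2.59. Both arrays lay above every WT array in each fraction. The change was 1.00 ± 0.14 and 1.14 ± 0.11 (adjusted p 6.32e-06 and 8.24e-09), and 0.89 and 0.88 in the same-set comparison. Against all WT arrays RPT1 was the only member called higher in nascent RNA, and PRE6, the next in total RNA, rose by 0.38. On the spike-in scale and against all WT arrays, RPT1 changed by -1.66 and -0.48, where the medians of all genes were -2.73 and -1.64.

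Against all WT arrays 5 members fell and 1 rose in nascent RNA of spt3Δgcn5Δ, where 24.6% of all genes fell and 20.9% rose, and 11 fell and 3 rose in total RNA, where 30.4% fell and 28.6% rose. None of the 5 was called lower against WT 7 and 8, the WT arrays of the same set. That comparison called 8 members higher and none lower in nascent RNA, where 20.1% of all genes were higher and 15.5% lower. In total RNA it called 9 higher and 5 lower, where 27.4% were higher and 29.3% lower. S. pombe genes were called in 50.6% and 57.7% of cases against all WT arrays and in 2.76% and 0.767% in the same-set comparison.

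In the same-set comparison the ubiquitin receptor gene RPN13 was higher by 1.28 in nascent and 0.98 in total RNA of spt3Δgcn5Δ, which was not called against all WT arrays (0.30 and 0.31, adjusted p 0.475 and 0.217). RPN11, the deubiquitinase of the lid, was higher by 0.37 and 0.39, PRE7 by 0.50 and 0.49, and PRE8 by 0.38 and 0.40. In total RNA PRE6 rose by 0.38 against all WT arrays, at 3.88 and 3.77, and by 0.46 in the same-set comparison. PRE5, an alpha subunit, and RPN3 fell in both comparisons, by 0.66 and 0.22 and then by 0.24 and 0.28. RPN8 and RPT6 fell by 0.39 and 0.30 against all WT arrays and were not called against the same set. The calls rest on 2 arrays: in total RNA 2 higher and 3 lower were left without the first and 3 higher and 2 lower without the second, and 3 higher and 17 lower without WT 7. In nascent RNA 1 higher and 1 lower were left without the first and 1 higher and none lower without the second, and 1 higher and 12 lower without WT 7 or without WT 8. Spike-in scaling against all WT arrays called all 33 members lower in both fractions. There 99.4% of all genes were lower in nascent and 94.5% in total RNA.

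The spike-in scale moved nearly all genes together in several strains, and the members moved with them. Its medians over all genes and over the members were -1.04 and -0.94 in spt20Δ, -1.15 and -1.05 in spt3Δ, -1.73 and -1.88 in ubp8Δgcn5Δ and -2.73 and -2.89 in spt3Δgcn5Δ in nascent RNA. In spt8Δ they were 0.073 and 0.053. On that scale, fewer S. cerevisiae cells in the mixture and less RNA per cell cannot be told apart. Relative to other S. cerevisiae genes and against all WT arrays, the members' median was 0.12 in spt20Δ and 0.074 in spt3Δ, so its sign turned with the scale. In ubp8Δgcn5Δ at -0.30 and in spt3Δgcn5Δ at -0.23 it was below 0 on both scales. The sign also depended on the WT arrays used. In the same-set comparison the medians were -0.078 in spt20Δ, -0.11 in spt3Δ, -0.51 in ubp8Δgcn5Δ and 0.14 in spt3Δgcn5Δ. With the constants undone the median of ubp8Δgcn5Δ was -0.032 against all WT arrays and -0.25 in the same-set comparison. The constants in ubp8Δgcn5Δ enter the spike-in scale in full: they come to 0.888 and 1.32 on the log2 scale, and all 1746 S. pombe probe sets of these arrays held values of 7 digits as deposited, which shows no such division. With the constants undone the medians of ubp8Δgcn5Δ over all genes and over the members were both -0.56, and 21 members were lower and none higher. The share of all genes called in that setting was not counted.

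RPN14, which assists base assembly and is no part of the finished particle, was not called in any strain against all WT arrays. In the same-set comparison it was higher in ubp8Δ by 0.51 in nascent and 0.55 in total RNA, in nascent RNA of spt8Δ by 0.70 and of ubp8Δgcn5Δ by 0.60 (0.43 with the constants undone), and in total RNA of spt20Δ, spt7Δ and ubp8Δgcn5Δ by 0.36, 0.28 and 0.25. It was lower by 0.54 in total RNA of spt3Δgcn5Δ. In 5 of these 7 rises (spt8Δ and ubp8Δgcn5Δ nascent, spt20Δ, spt7Δ and ubp8Δ total) the strain's arrays lay above all WT arrays of the same set. In ubp8Δgcn5Δ this is shown only for the values as deposited, with the lowest array at -0.617 against -0.618 on WT 6. Undoing the constants lowers RPN14 there.

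The other genes of the pathway were taken as 3 lists. Counts for these lists are against all 6 WT arrays, and how far the set difference enters them was not tested. Of 15 assembly factors and associated proteins 14 were tested, and the shares of all genes given above for each comparison apply to them too. On WT 7 and 8 against WT 3 to 6, 10 of these were lower and none higher in nascent RNA, and 9 lower and 2 higher in total RNA. Of the 18 genes of the second list 8 were lower and 5 higher in nascent RNA, and 5 lower and 9 higher in total RNA. In spt20Δ 8 rose and 1 fell in nascent RNA, against 20.5% and 25% of all genes, while 6 rose and 3 fell in total RNA, against 17.3% and 28.1%. IRC25, a chaperone of alpha ring assembly, rose by 1.41 and 1.26 (1.01 and 0.83 in the same-set comparison), and CIC1, a proteasome-associated protein that also acts in ribosome assembly, fell by 1.13 and 0.99. In spt3Δ total RNA 6 rose and 1 fell, against 15.3% and 12.1% of all genes: UMP1, the maturation chaperone of the core, changed by 1.04 (0.42 in the same-set comparison) and NAS6, a chaperone of the base, by 1.02 (0.49). NAS6 also rose in gcn5Δ by 1.06 in nascent and 1.15 in total RNA, which came to 0.45 and 0.62 against WT of the same set. In spt7Δ 3 rose and 3 fell, against 18.9% and 28.5% of all genes. In gcn5Δ total RNA 1 rose and 3 fell, against 17.2% and 19.8%, ECM29, which tethers core and regulatory particle, by 0.55. In total RNA of ubp8Δgcn5Δ 1 rose and 2 fell, against 18.2% and 26.8%, ECM29 by 0.48. The remaining comparisons had at most 3 of the 14 in either direction.

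Of 18 genes for ubiquitin supply, the CDC48 segregase and shuttle factors, 9 rose and none fell in spt3Δ total RNA, against 15.3% and 12.1% of all genes. UBC5, a ubiquitin-conjugating enzyme, rose by 1.19 (0.72 in the same-set comparison) and UBI4, the polyubiquitin gene of the stress response, by 0.86. UBI4 also rose by 1.53 and 1.54 in spt20Δ, by 0.67 in spt7Δ, by 0.87 and 0.63 in ubp8Δ and by 0.98 in total RNA of ubp8Δgcn5Δ. In spt20Δ 5 rose and 1 fell in nascent RNA (20.5% and 25% of all genes) and 4 rose and 1 fell in total RNA (17.3% and 28.1%). In spt7Δ 5 rose and 2 fell (18.9% and 28.5%), and in total RNA of ubp8Δgcn5Δ 2 rose and 2 fell (18.2% and 26.8%). In nascent RNA 3 rose in spt3Δ and 4 in ubp8Δ with none lower, where 4.75% and 6.63% of all genes rose. In total RNA 3 rose in ubp8Δ, 2 in spt8Δ and 1 in gcn5Δ with none lower, where 10.9%, 11.6% and 17.2% rose. In nascent RNA of ubp8Δgcn5Δ 3 rose and 7 fell as deposited (12.6% and 29.9% of all genes), and 2 rose and 1 fell with the constants undone (11.5% and 17.6%). In spt3Δgcn5Δ 6 rose and 3 fell in nascent RNA (20.9% and 24.6%) and 8 rose and 4 fell in total RNA (28.6% and 30.4%). There the ubiquitin ligase gene UFD4 rose by 1.26 and 1.51, and UBA1, the ubiquitin-activating enzyme, rose by 1.27 in total RNA (0.70 in the same-set comparison). UBC4 fell by 1.02 and 1.03 against all WT arrays. Against WT of the same set it changed by -0.23 in nascent RNA (adjusted p 0.355) and by -0.47 in total RNA, so the nascent call was lost.

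Of 6 genes that regulate RPN4 or its degradation 4 were tested. When nascent RNA of spt3Δ was examined, in which RPN4 was higher, 2 of them rose, YAP1, the oxidative stress activator, by 0.67 and HSF1, the heat shock activator, by 0.46, where 4.75% of all genes rose. In spt3Δgcn5Δ HSF1 rose by 0.36 and 0.41, and MUB1, which helps the ligase UBR2 mark RPN4 for degradation, fell by 0.64 and 0.86. The same-set changes were 0.26 and 0.28 for HSF1 and -0.47 and -0.44 for MUB1, and both nascent calls were lost there (adjusted p 0.0734 and 0.0814). MUB1 also fell by 0.50 in spt7Δ, and YAP1 fell by 0.35 in total RNA of spt8Δ. Relative to S. pombe, YAP1 and HSF1 in spt3Δ, and HSF1 in spt3Δgcn5Δ, changed by -0.46, -0.67, -2.30 and -1.21.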

How the data were processed

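The authors deposited normalized intensity values per probe set for 68 Affymetrix arrays, 34 of nascent and 34 of total RNA, for which the submitters' processing notes name Affymetrix Expression Console 1.4.1; the sources used here do not say how they were scaled, and the number of arrays limits the precision. Of 10928 probe sets, the platform annotation named 1 gene for 7244, several for 1 and none for 3683; 12 symbols were updated, and the brightest probe set stood for each of the 47 S. cerevisiae genes with several. Values were put on the log2 scale, and each array's median S. cerevisiae gene was set to 0. The lowest 25% by mean level were left out, which kept 4086 genes per fraction and 4015 in the fit of both. Group means were fitted with limma 3.58.1 (lmFit and eBayes, R 4.3.3) over 28 nascent and 30 total arrays, with p-values adjusted by Benjamini-Hochberg over all genes and a threshold of 0.05. The same code was tested on simulated data with known changes. Figures were drawn with matplotlib 3.10.9 in Python 3.11.15.

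Left out were 10 arrays. WT total 1 and 2 equal the means of 3 and 4 and of 5 and 6 for all 5498 S. cerevisiae probe sets, and WT nascent 1 and 2 were left out with them. The nascent arrays of spt7Δ had a rank correlation with its total arrays of 0.018 to 0.021, and spt20Δ total 1 and 3 held SPT20 at -0.10 and 0.026, inside the WT range of -0.22 to 0.51.

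The members and the other lists were chosen with earlier results of these data known. Named in each comparison were up to 4 members each way and up to 2 genes each way of the other lists, by size of change, among those called with all arrays outside the WT range, and RPN4; other members named were chosen after their values were seen. Alternatives were spike-in scaling on the S. pombe median, quantile normalization, no filter, the array set or the replicate number as a block, the compared groups only, consecutive replicates averaged, the 2 constants undone (found by a search for the divisors that give back values of 7 digits) and each array left out. Removal of the gene length trend, the constants undone together with another setting, the pairing of the fractions and the comparison of the WT sets were added after seeing the data. Same-numbered nascent and total arrays were taken as pairs because the deviations of each WT pair from its set mean correlated over 0.1 (from 0.127 to 0.762 over 6 pairs). WT 7 and 8 share the value 0.127 by construction. The strain ubp8Δ also met this (0.353 to 0.572 over 4), while the other strains had fewer than 3 pairs or a pair below it. The pairs were nevertheless applied to every strain of that fit. The labels do not tie the numbers across fractions. Gene lengths come from RefSeq gene models, of which 97% are multiples of 3. They are lengths of the gene model and not always coding lengths: PRE3, at 764 bases, is not a multiple of 3.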

Additional observations from a re-analysis of the deposited data

Results flagged for a closer look

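In groups of 4 or more arrays, the highest or lowest array was set against the range of its group by Dixon's criterion for the median over the members, RPN4 and the members described array by array; 5 of 80 groups had a far array, and chance gives about 1 in 20. The second nascent array of gcn5Δ lay low for the member median, at 2.03, and for PRE6, at 2.83. The fourth nascent array of gcn5Δ lay high for RPN2, at 2.13. WT total 4 lay high for PRE6, at 3.67, and the fourth total array of ubp8Δgcn5Δ lay low for PRE3, at 2.59.

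The change in spt8Δ differed between nascent and total RNA for RPT6, by -0.634, and for RPN1, by -0.508, by a test of the difference itself.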

How the results depend on the processing

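Counts are of members called, out of 33, and the cause of a move was not tested unless the setting itself shows it. Depth on arrays is signal over background: no background measure was among the values used. All members passed the filter on dim genes, which is relative, so how far background limits these counts was not tested.

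On the spike-in scale, in nascent RNA 31 were lower in spt20Δ and 10 in gcn5Δ, and 33 each in spt3Δ, ubp8Δgcn5Δ, spt3Δgcn5Δ and spt3Δ against spt8Δ, with 5 lower in spt3Δ against gcn5Δ. The shares of all genes lower were 83.2%, 27.3%, 90.2%, 98.1%, 99.4%, 92.3% and 34.4% in that order. In total RNA 11 were lower in spt20Δ, 22 in spt7Δ, 4 in ubp8Δgcn5Δ, 33 in spt3Δgcn5Δ and 6 in spt3Δ against spt8Δ, 29 were higher in spt8Δ, and 0 were called in gcn5Δ, spt3Δ and spt3Δ against gcn5Δ. WT nascent against total had 18 higher. The difference between fractions had 30 lower in spt3Δ, 33 in ubp8Δgcn5Δ, 22 in spt3Δgcn5Δ and 0 called in spt8Δ. Shares of all genes in the fit of both fractions were not counted on this scale or after quantile normalization. The sign of single genes turned with the shift of all genes. RPN4 was -0.89, -0.14, -0.39 and -0.15 in nascent RNA of spt20Δ, ubp8Δ, gcn5Δ and spt3Δ, and -0.25 in total RNA of spt20Δ. In nascent RNA of spt3Δ DDI1, UFD1, YAP1 and HSF1 were -0.33, -0.47, -0.46 and -0.67, and TMA17 in ubp8Δgcn5Δ was -1.13. In spt3Δgcn5Δ RPT1, PBA1, ADD66, DOA1, UFD4 and HSF1 were -1.66, -1.92, -2.05, -1.26, -1.40 and -2.30 in nascent RNA, and RPT1, PRE6, BLM10, UFD4, UBA1, HSF1 and PDR1 were -0.48, -1.24, -0.997, -0.11, -0.35, -1.21 and -1.30 in total RNA. In total RNA UBP6 and HUL5 were -0.12 and -0.030 in spt7Δ, CIC1 was 0.051 in ubp8Δ and YAP1 was 0.20 in spt8Δ.

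Quantile normalization called 9 (7 higher) in spt20Δ, 2 (1 higher) in gcn5Δ, 8 higher in spt3Δ, 6 higher in spt8Δ, 4 higher in ubp8Δgcn5Δ and 4 higher in spt3Δ against gcn5Δ in nascent RNA. The shares of all genes higher were 22.6%, 10.4%, 6.17%, 3.79%, 16% and 7.39% in that order. The shares lower were 26.1%, 11%, 6.44%, 4.94%, 19.1% and 7.64%. In total RNA it called 8 (6 higher) in spt20Δ, 7 (2 higher) in spt7Δ, 3 higher in ubp8Δ, 8 higher in spt3Δ, 0 in spt8Δ and 10 (9 higher) in ubp8Δgcn5Δ. The shares of all genes higher were 21.3%, 24.9%, 11.3%, 11.1%, 3.06% and 20.9% in that order. The shares lower were 22.4%, 23.2%, 15.5%, 11.5%, 3.57% and 25.8%. WT nascent against total had 15 lower, and the fraction difference of spt8Δ 0. RPN4 was 0.44 in ubp8Δgcn5Δ nascent and 0.040 in spt7Δ total RNA, and PRE6 in spt8Δ total RNA was -0.0029.

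With only the compared groups in the fit, which leaves fewer arrays to estimate the spread, the nascent counts were 1 in spt20Δ, 0 in gcn5Δ, 5 in ubp8Δgcn5Δ and 1 (higher) in spt3Δgcn5Δ. In total RNA they were 7 in spt7Δ, 1 (higher) in spt3Δgcn5Δ, 1 in spt3Δ against spt8Δ, 21 in spt3Δ against gcn5Δ, and 0 in spt20Δ, ubp8Δ, gcn5Δ, spt3Δ, spt8Δ and ubp8Δgcn5Δ. They were 0 for WT nascent against total and the fraction difference of spt8Δ. With consecutive replicates averaged the nascent counts were 2 in spt20Δ, 8 in ubp8Δgcn5Δ and 3 (1 higher) in spt3Δgcn5Δ. In total RNA they were then 8 in spt7Δ, 0 in ubp8Δ and gcn5Δ, and 3 (1 higher) in ubp8Δgcn5Δ. WT nascent against total had 0 with replicates averaged and the fraction difference of spt8Δ 1. For both of these settings the shares of all genes called were not counted.

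Across strains the replicate number does not pair the arrays of a fraction: the mean correlation of same-numbered arrays was 0.081 in nascent and -0.019 in total RNA, with values against WT from -0.55 to 0.43 and from -0.18 to 0.17. With a replicate block the counts were 1 in spt20Δ, 1 in ubp8Δ, 3 in gcn5Δ, 2 in spt8Δ, 25 (24 lower) in ubp8Δgcn5Δ, 16 (14 lower) in spt3Δgcn5Δ and 4 in spt3Δ against gcn5Δ in nascent RNA. In total RNA the replicate block gave 18 (17 lower) in spt20Δ, 27 (26 lower) in spt7Δ, 2 in ubp8Δ, 6 (5 lower) in gcn5Δ, 5 in spt8Δ, 19 (16 lower) in ubp8Δgcn5Δ, 3 in spt3Δ against spt8Δ, 25 in spt3Δ against gcn5Δ and 0 for WT nascent against total. With a replicate block across fractions WT nascent against total had 21 lower, and the fraction differences 6 in spt3Δ, 16 in spt8Δ and 16 in ubp8Δgcn5Δ, all lower. Same-numbered arrays of these deletion strains did not clearly deviate together. For the replicate block within a fraction the shares of all genes called were not counted. Its large counts are therefore not shown to be particular to the proteasome genes. RPN4 with the replicate block within a fraction was -0.19, -0.18 and -0.28 in nascent RNA of spt20Δ, ubp8Δ and gcn5Δ, and -0.26, -0.22, -0.35, -0.15 and -0.20 in total RNA of spt20Δ, ubp8Δ, gcn5Δ, spt8Δ and ubp8Δgcn5Δ.

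With the array set as a block the nascent counts were 1 in ubp8Δ, 12 in gcn5Δ, 3 in spt3Δ, 15 (14 lower) in spt8Δ, 31 (30 lower) in ubp8Δgcn5Δ, 8 (all higher) in spt3Δgcn5Δ and 2 in spt3Δ against gcn5Δ. In total RNA they were 19 (18 lower) in spt20Δ, 28 (26 lower) in spt7Δ, 3 in ubp8Δ, 9 (8 lower) in gcn5Δ, 9 in spt8Δ, 22 (18 lower) in ubp8Δgcn5Δ, 14 (9 higher) in spt3Δgcn5Δ, 4 in spt3Δ against spt8Δ and 25 in spt3Δ against gcn5Δ. WT nascent against total had 2, and the fraction differences 12 in spt3Δ, 20 (19 lower) in spt8Δ and 20 in ubp8Δgcn5Δ. RPN4 was -0.20, -0.19, -0.29, -0.0011 and 0.19 in nascent RNA of spt20Δ, ubp8Δ, gcn5Δ, spt8Δ and spt3Δgcn5Δ, and -0.20, -0.17, -0.29, -0.097, -0.15 and 0.20 in total RNA of spt20Δ, ubp8Δ, gcn5Δ, spt8Δ, ubp8Δgcn5Δ and spt3Δgcn5Δ. With the gene length trend removed the nascent counts were 3 (1 higher) in spt20Δ, 2 in gcn5Δ, 1 in spt3Δ, 11 (2 higher) in spt3Δgcn5Δ and 2 in spt3Δ against gcn5Δ. In total RNA they were 9 in spt20Δ, 22 (21 lower) in spt7Δ, 2 in ubp8Δ, 8 in spt8Δ and 16 in spt3Δ against gcn5Δ, and FUB1 in spt3Δgcn5Δ was 0.032. The shares of all genes called with that trend removed were not counted. With the constants undone ubp8Δgcn5Δ nascent RNA had 2 lower and RPN4 at 0.22, or 21 lower and TMA17 at -0.24 on the spike-in scale, and without a filter, which adds genes to the adjustment, the fraction difference of spt8Δ had 0.

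Leaving out 1 array at a time gave 2 to 13 calls in spt20Δ, 0 to 4 in ubp8Δ, 1 to 2 in gcn5Δ, 0 to 1 in spt3Δ, 9 to 21 in ubp8Δgcn5Δ and 1 to 13 in spt3Δgcn5Δ in nascent RNA. In total RNA it gave 3 to 6 in spt20Δ, 9 to 17 in spt7Δ, 0 to 5 in ubp8Δ, 1 to 5 in gcn5Δ, 2 to 20 in spt3Δ, 0 to 6 in spt8Δ and 5 to 20 in spt3Δgcn5Δ. WT nascent against total had 1 to 11, 1 without WT nascent 7 and 11 without WT nascent 5, and the fraction differences 0 to 6 in spt8Δ and 0 to 1 in ubp8Δgcn5Δ. The shares of all genes called with an array left out were not counted. RPN4 ranged from -0.072 to 0.17 in gcn5Δ nascent, from -0.19 to 0.048 in ubp8Δgcn5Δ nascent and from -0.042 to 0.24 in gcn5Δ total RNA.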
